A study of Mus musculus with 8 samples.

Results

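Rab GTPases are small proteins that mark the membranes of the cell and direct vesicle traffic between them. A Rab switches between a GTP-bound form, which sits on a membrane and recruits effectors, and a GDP-bound form, which a carrier protein holds in the cytosol. Exchange factors load GTP and GTPase-activating proteins end the cycle. In the retina, Rabs carry opsin from the Golgi to the photoreceptor cilium, serve vesicle release at ribbon synapses and sort the membranes that the pigment epithelium takes up. RAB6 acts at the Golgi, and of its main isoforms RAB6A is made in most cells while RAB6B is enriched in neurons.

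Members were the probes whose accession mapped to a gene symbol made of Rab, a number and at most one isoform letter and digit. The gene table held 59 such genes, and 57 of them were on the array with 89 of its 56605 probes. Rab36 and Rab44 had no probe. After removal of dim probes, 82 Rab probes of 55 genes remained among 37085 retained probes. Of the 7 Rab probes that were not retained, 5 were not well above background on any array. The 7 held all probes of Rab17 and Rab25, which act in polarised epithelia, and further probes of Rab15, Rab27a and Rab31.

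Whole retinas came from homozygous Mrp4 knockout mice, a line on a C57BL/6J background per the study's methods, and from wild-type (WT) mice, all 46 to 55 weeks old per the labels. Mrp4 (gene symbol Abcc4) encodes an efflux transporter. Each genotype had 4 samples, each hybridised to 1 one-color Agilent array. The methods mention 3 mice as the source of tissue and leave unclear if a sample is a pool, so the p-values measure the spread between these samples.

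All 8 arrays were on 1 slide, with the WT samples in one row and the null samples in the other, so slide row and genotype cannot be told apart. The 75th percentile of the signal was 678 to 1082, lowest on the Mrp4-null 2 and WT 3 arrays, and 66.0 to 69.9% of probes were well above background. The Abcc4 probe went against the labels, at 10.75 ± 0.09 (SD, n = 4) on the arrays labelled Mrp4-null and 6.83 ± 0.29 (n = 4) on the WT arrays on the normalized log2 scale (limma, adjusted p = 1.36e-05). Whether this probe lies in the deleted part is not given in the sources used here. Every direction given here is that of the labels. Markers were those of retina: the mean log2 level of 8 rod genes was 16.06 to 16.14 on the null arrays and 16.01 to 16.19 on the WT arrays. Lens genes were also measured, and all 14 were lower on the null arrays by a mean of 1.24 log2 (0 called by limma, 4 at an unadjusted p under 0.05), with array means of 6.09 to 8.27 against 7.18 to 9.43.

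To find whether Rab transcripts differ between genotypes, log2 signals normalized by the quantile method were compared with limma over all retained probes. The call required a 1.5-fold difference or more together with a Benjamini-Hochberg adjusted p under 0.05 over the 37085 probes. Rab6b was the only Rab probe of 82 to be called, and it was lower in the samples labelled Mrp4-null. Over all retained probes 202 (0.545%) were called, 107 lower (0.289%) and 95 higher (0.256%), so a count of 1 in 82 is close to the background.

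Rab6b was measured by 1 probe (A_52_P11441; chromosome 9). Its normalized log2 signal was 14.09, 13.89, 14.14 and 14.18 on the null arrays and 14.74, 14.70, 14.52 and 14.69 on the WT arrays. Every null array lay below every WT array, as did those of 2.36% of all retained probes. The mean was 14.08 ± 0.13 (SD, n = 4) in null and 14.67 ± 0.10 (n = 4) in WT retinas. The log2 fold change was -0.59 with a standard error of 0.09 and a 95% interval from -0.80 to -0.38 (limma, adjusted p = 0.0314). The signal was 33.6% lower, a WT over null ratio of 1.51 against the threshold of 1.5. An exact two-sided permutation test gave p = 0.0286, the smallest that 4 arrays against 4 allow. In bulk retina, fewer cells that express Rab6b and less Rab6b RNA per cell cannot be told apart.

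Rab6a, the widely expressed isoform, was measured by 1 retained probe on chromosome 7. Its log2 signal was 13.91, 13.46, 13.79 and 14.00 on the null arrays and 13.88, 13.99, 13.63 and 13.87 on the WT arrays. The arrays overlapped, and both genotypes had their lowest value on its array with the lowest 75th percentile of signal. The log2 fold change of Rab6a was -0.05 with a standard error of 0.13 (adjusted p = 1.00, limma), and its 95% interval ran from -0.36 to 0.25.

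To compare the isoforms within each array, the log2 signal of Rab6a was subtracted from that of Rab6b. Between probes only the change of this difference across arrays can be read, not its size. It was 0.18, 0.43, 0.35 and 0.18 on the null arrays and 0.86, 0.71, 0.89 and 0.83 on the WT arrays. The groups did not overlap, and the difference between genotypes was -0.54. With no normalization between arrays it was also -0.54, since a scaling common to the array cancels. Rab6b thus changed relative to Rab6a by about as much as it changed on its own. As Rab6b had been called on these same arrays and Rab6a barely differed, this is no separate support.

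**Figure D1:**
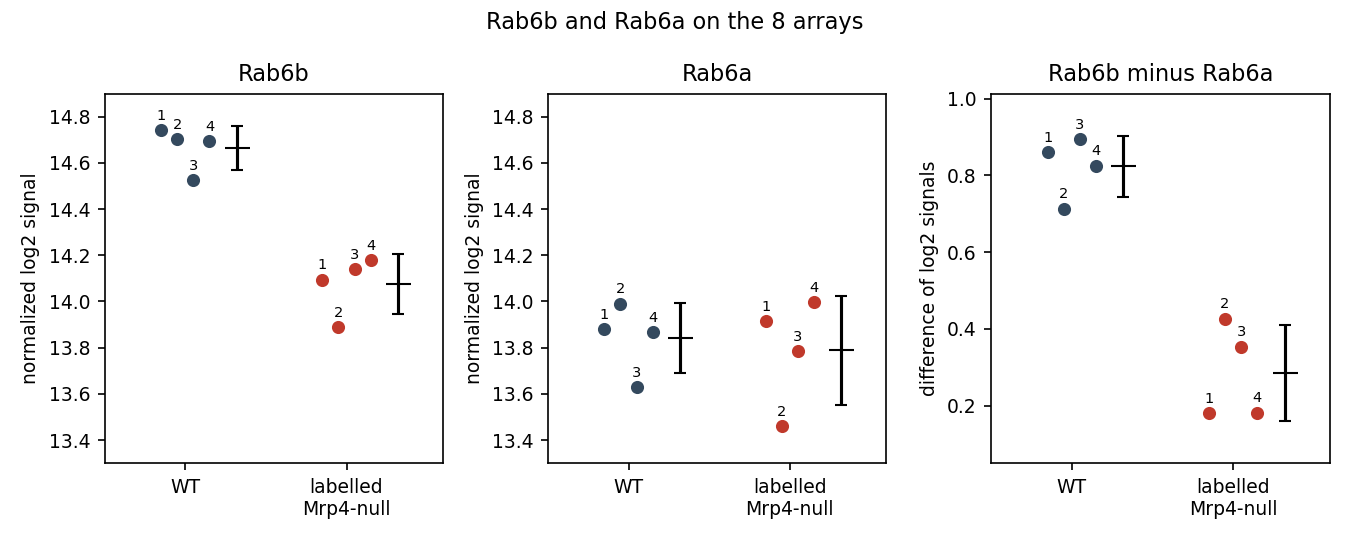
Normalized log2 signal of Rab6b (left) and Rab6a (middle) and their difference (right) on the 4 WT and 4 arrays labelled Mrp4-null; points are arrays with their sample number, the horizontal bar is the mean and the vertical bar 1 SD. Rab6b separates the genotypes, from 13.89 to 14.18 against 14.52 to 14.74, while Rab6a overlaps.

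Rab6b was also set against the other 81 Rab probes. Its log2 signal minus their median was 4.53, 4.23, 4.54 and 4.52 on the null arrays and 5.13, 4.93, 4.86 and 5.03 on the WT arrays. The difference between genotypes was -0.53, and without any single array it stayed between -0.58 and -0.46. The lower value of Rab6b was thus present beside the other members on the same arrays.

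The Rab6b call was near both thresholds. Over 19 alternatives of processing or of arrays, the log2 fold change ran from -0.63 to -0.52 and was below 0 in each. The adjusted p was under 0.05 in 9, the fold reached 1.5 in 13, and both held in 7. No call was made when any 1 array was left out: the adjusted p was then 0.0508 to 0.136 and the WT over null ratio 1.43 to 1.55. The local pooled error (LPE) test of the study's methods, which pools the variance of probes of similar level, gave an adjusted p of 0.00575.

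**Figure D2:**
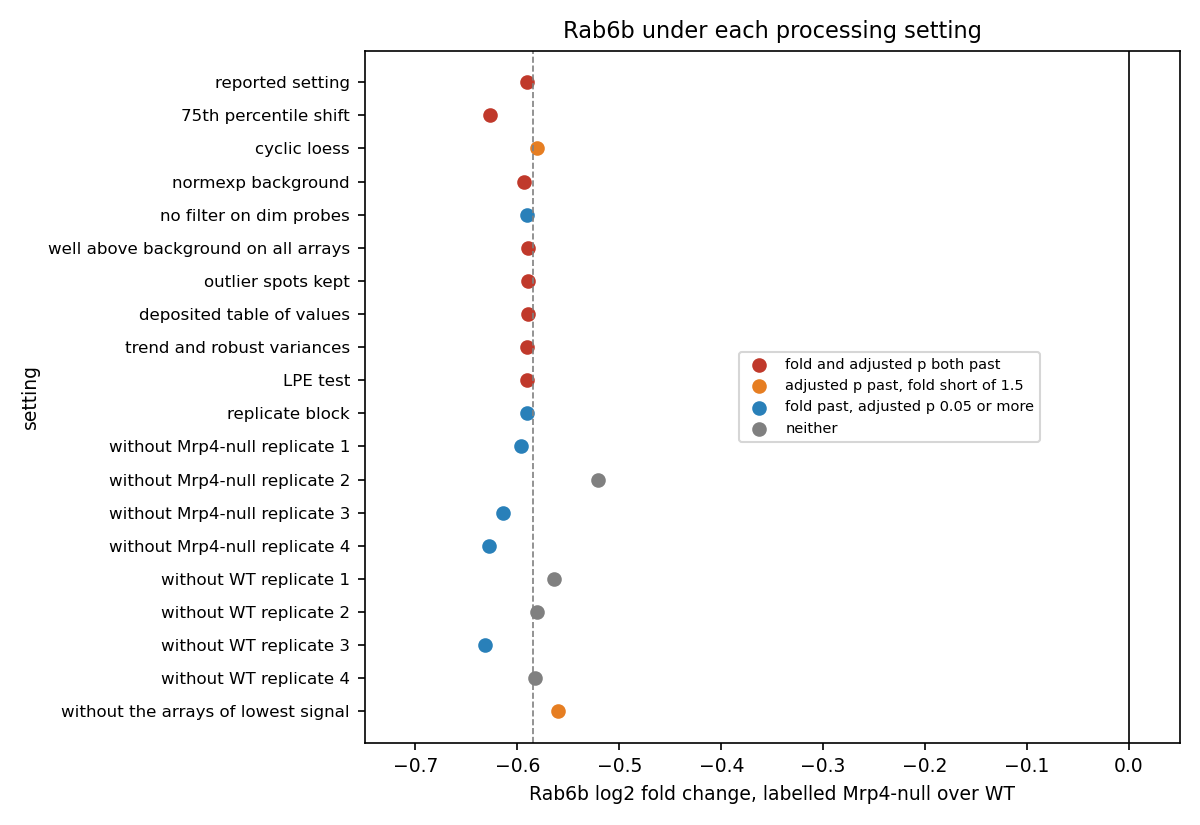
Log2 fold change of Rab6b (horizontal axis) under the reported setting and 19 alternatives (vertical axis); the dashed line is a 1.5-fold decrease, and the colour gives which of the fold and the adjusted p passed. Every point lies below 0, between -0.63 and -0.52, on either side of the dashed line.

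Markers of neurons were set beside Rab6b because the isoform is enriched in neurons. Of 8 ganglion cell genes 7 were lower in null retinas and 0 were called by limma (1, Sncg, at an unadjusted p under 0.05). Their mean log2 level was 12.34 to 12.45 on the null arrays and 12.44 to 12.57 on the WT arrays. In this list Nefl, Nefm, Pou4f1 and Sncg lie on chromosome 14 and Rbpms on chromosome 8, where called probes were more frequent (given below). Of 11 presynaptic and neuronal genes 6 were lower, with means of 12.33 to 12.38 against 12.38 to 12.45. Uchl1, a neuronal deubiquitinase, was the 1 called, at -0.67 log2. Mean log2 differences were -0.12 for the ganglion list and -0.06 for the presynaptic list. Without Uchl1 the presynaptic mean was 0.00, with 5 of the other 10 genes lower and 5 higher. Of 6 bipolar genes 5 were higher in null retinas and 0 were called by limma (1 at an unadjusted p under 0.05). Their mean difference was 0.12 log2, with array means of 13.35 to 13.63 against 13.26 to 13.50. Of 8 amacrine and horizontal genes 5 were higher and 0 were called. Their mean difference was 0.02 log2, with array means of 12.16 to 12.26 against 12.17 to 12.24. These means cover retained genes, and the part of the ganglion list's values in that of Rab6b was not tested.

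Chromosome 9, which carries Rab6b, held 1346 named retained probes, and Rab6b was the 1 called (0.0743%). Called probes were more frequent on chromosome 8 (40 of 1197 named probes, 3.34%), chromosome 14 (24 of 822, 2.92%), which carries Abcc4, and chromosome 4 (28 of 1552, 1.80%). Of the 14 Rab probes on those chromosomes, 0 were called and 1 had an unadjusted limma p under 0.05. The 10 measured genes nearest to Rab6b, on either side, had 19 probes, of which 0 were called by limma (lowest adjusted p = 0.290). An unadjusted limma p under 0.05 was found for 3 of the 19, Bfsp2 among them, against 6.46% of all retained probes. These neighbours were chosen after their values were seen. They ran from -1.40 for Bfsp2, a lens filament gene among the lower lens genes above, to 0.39 for Trf, which encodes transferrin.

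The other members were described by where their proteins act. Of the 18 probes for the Golgi and early secretory pathway, 14 were lower and 4 higher in null retinas, with a median of -0.05 log2 and Rab6b as the 1 called. RAB1A and RAB2A serve traffic between the endoplasmic reticulum and the Golgi. The log2 fold change was -0.01 for Rab1a (95% interval -0.21 to 0.18) and -0.06 for Rab2a (-0.23 to 0.10). For Rab18, whose product works at the endoplasmic reticulum and lipid droplets, it was -0.08 with a wider interval from -0.47 to 0.30.

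Rab33a, an X-linked gene whose product acts at the Golgi and in vesicles of neurons, stood at 10.51, 10.56, 10.33 and 10.38 on the null arrays. On the WT arrays it was 10.71, 10.59, 10.62 and 10.72. The groups were close but did not overlap. The fold change of -0.21 log2 (SE 0.08) did not pass after adjustment (limma, adjusted p = 0.668).

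For synaptic and regulated secretion there were 12 probes, 9 lower and 3 higher, with a median of -0.05 log2 and 0 called by limma (1 at an unadjusted p under 0.05). Rab3a, the synaptic vesicle Rab, was at 14.75, 14.74, 14.83 and 14.68 on the null arrays and 14.79, 14.71, 14.79 and 14.62 on the WT arrays. These values overlapped throughout, and the log2 fold change was 0.02 with a 95% interval from -0.16 to 0.19. It was -0.08 for its relative Rab3b (-0.24 to 0.09). Rab27a and Rab27b, whose products tether secretory granules and melanosomes, were both at 0.00, with intervals from -0.22 to 0.21 and from -0.23 to 0.23.

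Rab37, whose product is found on secretory granules, had the lowest p after Rab6b. Its log2 signal was 9.64, 9.73, 9.45 and 9.62 on the null arrays and 9.86, 10.04, 10.09 and 10.18 on the WT arrays. The groups did not overlap. The fold change was -0.43 log2 (SE 0.10) and did not pass after adjustment over all probes (limma, adjusted p = 0.167).

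Of 24 probes for post-Golgi transport, recycling endosomes and the cilium, 17 were lower and 7 higher, with a median of -0.04 log2 and 0 called by limma (2 at an unadjusted p under 0.05). RAB8A and RAB8B bring rhodopsin carriers to the base of the cilium. Rab8a stood at -0.12 log2 (95% interval -0.57 to 0.34) and Rab8b at -0.09 (-0.53 to 0.35). By the probe of highest signal these were the least precise of the named genes in this group. A second probe of each was narrower, at -0.16 (-0.40 to 0.09) for Rab8a and -0.10 (-0.34 to 0.13) for Rab8b. Rab11a, whose product marks recycling endosomes and also takes part in rhodopsin transport, was at 11.33, 11.52, 11.40 and 11.53 on the null arrays and 11.55, 11.57, 11.75 and 11.73 on the WT arrays. The groups did not overlap by a small margin, and the fold change of -0.21 log2 (SE 0.09) did not pass (limma, adjusted p = 0.739). For Rab11b it was 0.03 (-0.21 to 0.27).

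RAB28 is a ciliary Rab that cones need for outer segment turnover, and its log2 fold change was 0.03 (95% interval -0.19 to 0.25). RAB23, a regulator of Hedgehog signalling at the cilium, was at -0.08 (-0.40 to 0.24). RAB10, RAB14 and RAB35 serve exocytic, endosomal and recycling routes. Their genes stood at 0.00 (-0.21 to 0.22), -0.06 (-0.24 to 0.13) and -0.10 log2 (-0.27 to 0.07). None of these genes was called.

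Rab13, whose product serves tight junctions and recycling, was at 6.78, 6.48, 6.87 and 6.50 on the null arrays and 7.08, 7.04, 6.88 and 6.80 on the WT arrays. Its arrays overlapped and its fold change was -0.29 log2 (SE 0.12; limma, adjusted p = 0.694). A second Rab13 probe was at -0.04 log2, so the probes of this gene differed.

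The endosome and lysosome group had 23 probes, 17 lower and 6 higher, with a median of -0.02 log2 and 0 called by limma (1 at an unadjusted p under 0.05). RAB5A directs fusion of early endosomes and RAB7 that of late endosomes and lysosomes. The log2 fold change was 0.00 for Rab5a (95% interval -0.26 to 0.27) and -0.02 for Rab7 (-0.23 to 0.19). A second probe of Rab7 was at -0.12.

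Rab20, whose product is found on phagosomes and endosomes, had the lowest fold change of the family. Its log2 signal was 3.68, 4.21, 4.47 and 3.12 on the null arrays and 4.89, 4.96, 4.65 and 4.43 on the WT arrays. The groups overlapped and the null arrays spread widely. The probe was dim, well above background on 3 of 4 null arrays and all 4 WT arrays, so it was retained only through the WT arrays, where it was higher. A filter of this kind favours a lower null value. The fitted fold change of -0.86 log2 (SE 0.28) is therefore given as a description, and it did not pass in any case (limma, adjusted p = 0.477).

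RAB32 and RAB38 build melanosomes and related organelles, and the retina itself holds little pigment. Markers of the pigment epithelium were therefore set beside their probes. Rab32 and Rab38 were both higher in null retinas. Rab38 was at 7.28, 7.31, 7.28 and 7.22 on the null arrays and 7.18, 7.13, 7.11 and 7.21 on the WT arrays, which did not overlap. The difference was 0.12 log2 (limma, adjusted p = 0.949). Rab32 was at 6.17, 5.44, 6.57 and 5.96 against 5.79, 6.04, 5.43 and 5.69, with overlap and a log2 fold change of 0.30 (95% interval -0.23 to 0.82). The pigment epithelium list had 2 of 8 retained genes lower and 0 called by limma (0 at an unadjusted p under 0.05). Its array means were 7.52, 7.76, 7.29 and 7.63 in null and 7.72, 7.80, 7.23 and 7.25 in WT retinas. On the null arrays the list was highest where Rab32 was lowest, and lowest where Rab32 was highest. On the WT arrays the list and Rab32 were both highest on WT 2 and lowest on WT 3. The part of this list in the Rab32 and Rab38 values was not tested. The last 3 probes, for Rab40b and Rab40c, which recruit a ubiquitin ligase, were lower by at most 0.08 log2.

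**Figure D3:**
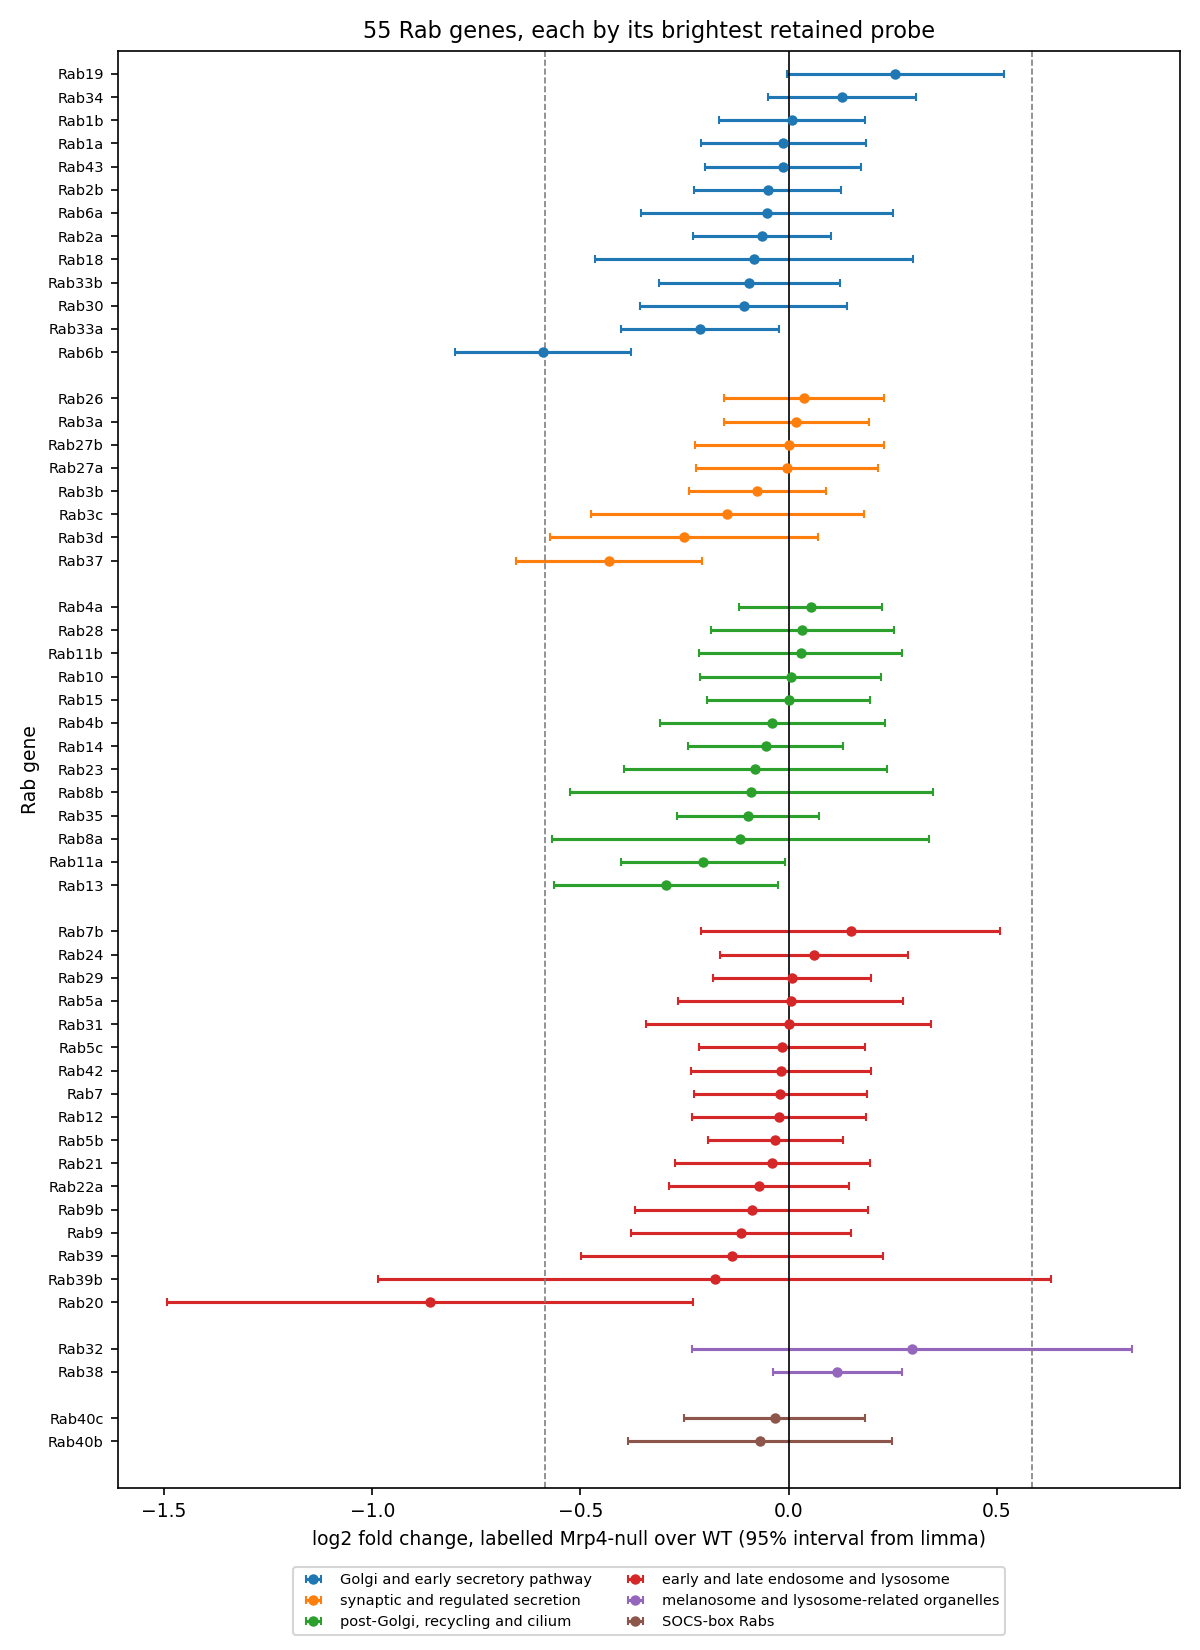
Log2 fold change, labelled Mrp4-null over WT, of the 55 retained Rab genes (vertical axis, 1 probe of highest signal each, coloured by where the protein acts); bars are 95% intervals from limma on 4 against 4 arrays, and dashed lines mark 1.5-fold either way. Rab6b and Rab20, the latter retained through the WT arrays alone, lie past the dashed line, and 43 of the 55 genes differed by under 10%.

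Over the family, 60 of 82 probes were lower and 22 higher in null retinas. The share lower was 73.2%, against 53.2% of all retained probes, but the median log2 fold change was only -0.04, against -0.01. Without the Mrp4-null 2 array the share lower was 54.9% (45 of 82) against 51.0% of all probes and the median was -0.01. Without any other single array it was 64.6 to 81.7%, against 50.9 to 52.8% of all probes. Without both Mrp4-null 2 and WT 3 it was 65.9% against 51.8%, with a median of -0.03.

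An unadjusted p under 0.05 was found for 6 Rab probes (7.32%), against 6.46% of all retained probes, and all 6 were lower (Rab6b, Rab37, Rab20, Rab33a, Rab13 and Rab11a). The direction of Rab20 does not bear on this count, since it was retained only through the WT arrays, where it was higher. Among the 80 Rab probes well above background on every array, which leave out Rab20 and 1 probe of Rab3d, there were 5, all lower. Over all probes 2.94% were lower at that p and 3.52% higher. For 5 Rab probes (6.10%) the null and WT arrays had no overlap, against 4.79% of all probes. Of these, 4 were lower (Rab6b, Rab37, Rab33a and Rab11a; 2.36% of all probes) and 1 was higher (Rab38; 2.44%). By adjusted p alone the 1 Rab probe was again Rab6b (0.601% of all probes), as it was by the adjusted LPE p with the fold threshold (0.626%). With the unadjusted LPE p under 0.05 and the fold threshold, the rule of the study's methods, 2 Rab probes passed, Rab6b and Rab20 (1.43% of all probes; chosen after seeing the data). By fold alone there were 2, again Rab6b and Rab20 (1.88% of all probes). As Rab20 was retained only through the WT arrays, Rab6b was the 1 among the 80 probes in either count.

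Fold changes of the Rab probes were small. Of the 82, 66 differed by under 10% and 76 by under 20%. The median size of the log2 fold change was 0.05, against 0.08 over all retained probes. The spread between arrays was also small, with a median SD of 0.15 in null and 0.12 in WT retinas, against 0.19 and 0.16 over all probes. For 74 of the 82 the 95% interval lay within 1.5-fold either way. The 8 exceptions were probes of Rab2b, Rab3d, Rab6b, Rab9, Rab20, Rab32, Rab37 and Rab39b. Rab39b, an X-linked neuronal Rab, had the widest spread, at 6.93 to 8.49 on the null arrays and 7.50 to 8.48 on the WT arrays.

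**Figure D4:**
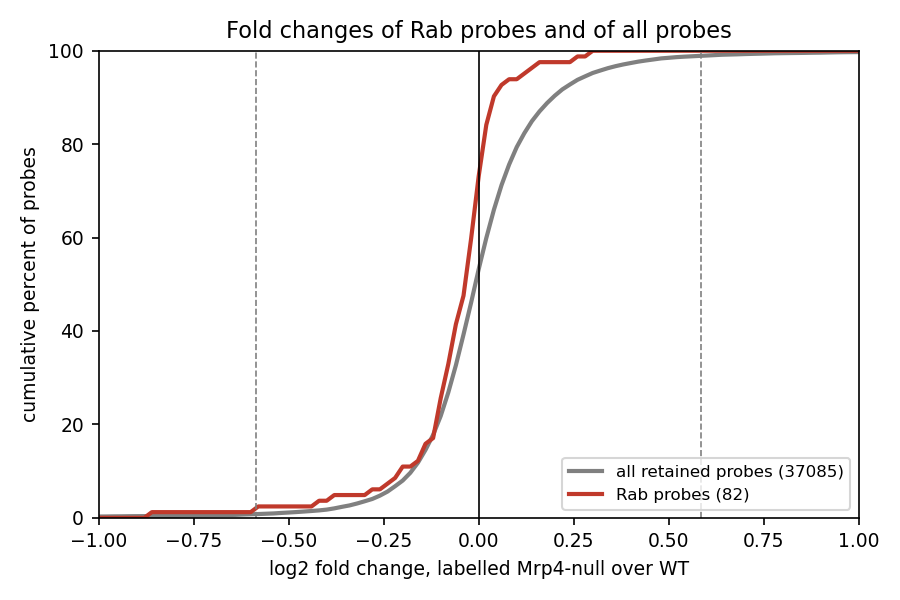
Cumulative percent of probes (vertical axis) by log2 fold change, labelled Mrp4-null over WT (horizontal axis), for the 82 Rab probes and all 37085 retained probes; dashed lines mark 1.5-fold either way. The Rab curve is steeper, with fold changes from -0.86 to 0.30 and 73.2% of probes below 0.

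Genes with more than 1 probe gave a check within the array. Of 25 such genes, 18 had all probes on the same side of 0, and the median gap between probes was 0.05 log2. The other 30 retained genes, Rab6b and Rab6a among them, rested on 1 probe, so no second probe was available for the 1 call.

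The proteins that drive the Rab cycle were taken from lists of exchange factors, GTPase-activating proteins, effectors, carriers, Rab-like proteins and RAB6 partners at the Golgi. In all 207 probes of 130 genes were retained, with 108 lower, 99 higher and a median of -0.01 log2. One (1 of 207) was called, against the 0.545% of all probes. Unadjusted p was under 0.05 for 8 (3.87%).

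None of the 38 probes of RAB6 and Golgi partners was called by limma or by adjusted LPE p (0 at an unadjusted p under 0.05), and their median was 0.01 log2. BICD1 and BICD2, adaptors that link RAB6 vesicles to dynein, stood at -0.13 and 0.00 (both probes of Bicd1) and 0.03 log2. Of the 9 probes of carriers and prenylation factors 0 were called by either test (0 at an unadjusted limma p under 0.05). Gdi2, which extracts Rabs from membranes, was at 0.03 log2, and Chm, the escort protein whose loss causes choroideremia, was at -0.09. These 4 genes lie outside the naming rule and were named after their values were seen.

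The called probe was for Tbc1d9 (A_51_P170466; chromosome 8), a member of the family of Rab GTPase-activating proteins. Its log2 signal was 8.78, 8.42, 8.74 and 8.83 on the null arrays and 9.37, 9.51, 9.27 and 9.48 on the WT arrays, with no overlap. The fold change was -0.71 log2 (SE 0.11; limma, adjusted p = 0.0294). A second retained probe of Tbc1d9 was at 0.01 log2 (SE 0.10), so the probes of this gene disagreed. The call was lost with the adjusted LPE p and on leaving out any 1 array other than Mrp4-null 2. Of the exchange factors (39 probes), effectors (56) and Rab-like proteins (10), 0 were called by limma or by adjusted LPE p, with 1, 4 and 0 probes at an unadjusted limma p under 0.05.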

How the data were processed

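Total RNA of whole retina was labelled with Cy3 and hybridised to SurePrint G3 Mouse 8x60K arrays. The authors deposited scanner files of Feature Extraction 11.0.1.1 with processed signal intensity, background-subtracted and not normalized between arrays, and a table that held the mean processed intensity per probe. Its values for the 56605 probes differed from the means of the scanner files by a relative difference of at most 1.46e-07 on any array.

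Groups followed the genotype label (4 Mrp4-null, 4 WT). Each array held 62976 spots, 59305 of them not controls. Outlier spots (78 to 143 per array) were left out, and no spot was saturated. Intensities were log2-transformed, averaged per probe and, quantile-normalized over the probes that 1 genotype or both had well above background on each array measured (3 or more arrays there and 2 or more in the other). The number of arrays limits the precision. Models were fitted in R 4.3.3 by limma 3.58.1 (lmFit and eBayes with genotype as the single term), with statmod 1.5.0 and the package data.table (1.17.8), and were tested on simulated data. limma replaced the LPE test of the study's methods, which was an alternative. Accessions named 32994 probes (58.3%) through the GRCm38.p6 gene table. The array design carries the older build mm9, so no coordinates are given. Probes of a gene were kept apart.

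Alternatives covered scaling, background (normexp with offset 50 on median in place of mean signal, since the files used held no mean signal column), dim probes, outlier spots, the deposited table, variance model, test, thresholds, sample number and each array. Named were Rab probes called or with unadjusted p under 0.05, Rab6a, Rab6b, Rabs with a role in retina or a nearby organelle (by the probe of highest mean signal), called machinery genes and marker lists. Other Rabs were named where not retained or at the end of a range. Members and lists were chosen with earlier results of these data known. Mean marker levels of the lists not given in the results were, in null and WT retinas, 14.44 to 14.50 and 14.42 to 14.55 log2 for cones, 13.15 to 13.36 and 13.29 to 13.40 for Müller glia, 8.33 to 8.66 and 8.32 to 8.62 for ciliary body, 10.13 to 11.12 and 10.09 to 11.08 for blood, 8.35 to 8.85 and 8.75 to 9.00 for endothelium, 8.32 to 9.53 and 8.49 to 8.64 for microglia, and 6.08 to 6.46 and 6.12 to 6.36 for skeletal muscle.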

Additional observations from a re-analysis of the deposited data

Results flagged for a closer look

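Rab28 was at 14.64 on the Mrp4-null 2 array, against 14.93 to 14.96 on the other null arrays. This gap was 0.927 of the range of the 4 arrays, above the 95% critical value of Dixon's test for 4 values. This array had the lowest 75th percentile of signal of the 8. In all 52 groups of 4 arrays were screened and 1 was past that value, and chance gives about 1 in 20.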

How the results depend on the processing

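The Rab6b value kept its direction under all 19 alternatives and its call under 7. It was -0.58 log2 with cyclic loess (adjusted p = 0.0321, fold short of 1.5), -0.59 with no filter on dim probes (adjusted p = 0.0536) and -0.56 without the Mrp4-null 2 and WT 3 arrays of lowest signal (adjusted p = 0.0498, limma, fold short of 1.5; chosen after seeing the data). Leaving out 1 array at a time gave -0.63 to -0.52. The count of Rab probes called was 0 in each of these settings (0 to 0 with 1 array left out) and 2 by fold alone, when all probes gave 699 (1.88%). The count over all probes was 117 to 188 with 1 array left out (131, 129 and 117 without WT 2, WT 3 and WT 4) and 128 without the arrays of lowest signal. The count of machinery probes was 0 with no filter, 0 with the adjusted LPE p, 2 by fold alone and 0 to 1 with 1 array left out. With the unadjusted LPE p and the fold threshold, also chosen after seeing the data, 2 Rab probes, 2 machinery probes and 532 of all probes passed. With the sample number as a replicate block, Rab6b was at -0.59 (adjusted p = 0.297, limma), and 0 Rab probes, 0 machinery probes and 71 of all probes were called. Deviations of samples with the same number correlated at -0.29, -0.69, 0.03 and 0.41, which neither shows nor excludes a pairing by number. The median over Rab probes, the Rab6b value relative to Rab6a and to the other Rab probes and the other named Rabs kept their direction, or moved by less than 1 SD, under the alternatives run for each. Rab20 could not be given under the filter on all arrays. The cause of these shifts was not tested.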
